A study of Rattus norvegicus with 6 samples.

Results

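The nuclear-encoded subunits of oxidative phosphorylation were compared in the hippocampus of 2 rat lines, with complexes I to V taken apart. The lines are Syracuse High Avoidance (SHA) and Syracuse Low Avoidance (SLA) rats, named for how well they learn two-way active avoidance. In that task a rat avoids a signalled shock by changing sides of a box. Whole hippocampus was taken 2 weeks after that testing in both lines, 3 rats were pooled per sample, and each line was measured as 3 pools on 3 oligonucleotide arrays. The labels give no age or further treatment, and both lines had been tested, so no group here is untested. Members were all probe sets annotated to exactly 1 gene whose symbol starts with Nduf, Sdh (a to d), Uqcr, Cox4 to Cox8 or Atp5, or is Cyc1 or Cycs. This gave 101 probe sets of 55 genes among 8799 probe sets on the array: 49 for complex I, 1 for complex II, 7 for complex III, 27 for complex IV and 17 for complex V. Another 7 probe sets name a member together with a second gene, among them the only one for Cycs, and were left out. The symbol rule also brought in 15 probe sets of 5 genes that encode no subunit: the assembly factor Ndufaf3, Ndufa4l2, the ATP synthase inhibitor Atp5if1, the supercomplex factor Cox7a2l and the pseudogene Cox6c-ps1.

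The respiratory chain sits in the inner mitochondrial membrane. Complex I takes electrons from NADH and complex II takes them from succinate, complex III passes them to cytochrome c, and complex IV hands them to oxygen. Complexes I, III and IV pump protons, and complex V, the ATP synthase, uses the returning protons to make ATP. Neurons depend on this supply for ion pumping and synaptic transmission. All genes compared here lie in the nucleus and their proteins are imported. Transcription of many of them is known to use the factors NRF-1, GABP (an ETS factor) and YY1.

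Promoters are shown because these genes are known to share such control. Whether a motif goes with the line difference was not tested. RefSeq promoter windows of assembly GRCr8, from 250 bases before to 50 bases after the start, matched 46 of the 55 genes. Both strands were searched for core letters of the NRF-1 site (GCGCATG), the ETS core that GABP binds (CCGGAAG) and a YY1 motif (AAGATGG). The NRF-1 letters were found in 5 of the 46 member windows (10.9%), in 3.77% of all 33469 windows and in 4.32% of protein-coding ones. For the ETS core these shares were 9 windows (19.6%), 8.75% and 10.7%. For the YY1 motif they were 13 windows (28.3%), 7.01% and 7.29%, with 3 of the 13 lying wholly before the start. Member windows had a median GC content of 55.8% against 51.7% over all windows, and no matches of different motifs overlapped. A match is a run of letters and does not show binding. Sequences are given for the stretches before the start of Ndufa6, a complex I subunit, Cox5b of complex IV and Uqcrc2 of complex III. The window of each of these genes holds matches of at least 2 kinds. The windows of Atp5pf, Atp5po, Cox8a and Ndufb8 do so too, and their sequences are not given. The genes with sequences are therefore examples and not all that meet this criterion. Capitals mark the matches, which in Ndufa6 include a pair of overlapping NRF-1 matches. Each stretch is written 5′ to 3′ on the gene's strand.
Ndufa6 (GRCr8, chr7:115750391-115750527, minus strand): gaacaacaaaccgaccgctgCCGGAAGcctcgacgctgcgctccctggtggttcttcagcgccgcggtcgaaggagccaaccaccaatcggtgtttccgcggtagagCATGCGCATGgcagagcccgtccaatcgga
Cox5b (GRCr8, chr9:46417681-46417836, plus strand): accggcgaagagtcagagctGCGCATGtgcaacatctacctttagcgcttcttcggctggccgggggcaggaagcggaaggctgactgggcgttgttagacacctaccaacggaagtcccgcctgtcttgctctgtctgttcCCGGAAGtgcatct
Uqcrc2 (GRCr8, chr1:184599103-184599239, plus strand): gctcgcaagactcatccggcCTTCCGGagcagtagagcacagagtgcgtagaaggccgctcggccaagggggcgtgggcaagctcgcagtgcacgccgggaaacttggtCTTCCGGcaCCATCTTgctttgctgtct

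Values are linear intensities on the authors' scale. A difference is the mean log2 intensity of SHA less that of SLA, given ± its standard error, with n = 3 pools per line. Intensities of different probe sets are not comparable with each other. The 2%-trimmed mean lay between 249.6 and 250 on the 6 arrays, and members took 3.6% to 4.62% of an array's summed intensity. Geometric means of the control transcripts added to each sample ran from 639.7 to 12280, highest in both pools numbered 1 and lowest in both numbered 2. The log2 ratio of the 3′ to the 5′ probe set of Gapdh is a sign of RNA integrity. It was 0.07, 0.20 and 0.33 in SHA pools 1 to 3 and -0.02, 0.09 and 0.43 in SLA pools 1 to 3. It thus rose with the number in both lines, and the lines overlapped. The same ratio of Actb was 0.79, 0.61 and 0.57 in SHA and 0.41, 0.57 and 0.59 in SLA, highest in SHA pool 1. The part of these ratios in the differences below was not tested. The pool is the replicate, and p-values measure the spread between pools, for which the labels state no shared or separate handling. In bulk tissue fewer cells of a type and less RNA per cell cannot be told apart.

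Members of complexes I, III and V lay mostly on the higher side in SHA, by small amounts. Complex IV did so less, with 16 of 25 tested probe sets higher and a direction that depended on single pools. No single gene passed the test. Of the 96 member probe sets bright enough to test, 78 were higher and 18 lower in SHA, which is 81.2%, while 48.1% of all 6555 probe sets tested were higher. The median difference was 0.16 over the members and -0.01 over all probe sets tested. The differences of members ran from -0.44 to 1.36, and only 1 was beyond 1 in size. Taking each gene by its brightest probe set, 45 of 55 genes were higher, with a median of 0.12, and the median was 0.20 when each gene was taken by the mean of its probe sets. Among genes with several tested probe sets, 16 had all of them higher, 2 had all lower and 8 had some on each side.

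No member passed limma's test at a Benjamini-Hochberg adjusted p under 0.05, and 0 of the 6555 probe sets did (0%). No member had an unadjusted p under 0.05 either, while 98 probe sets of the array did (1.5%: 0.366% higher and 1.13% lower in SHA). The lowest unadjusted p among members was 0.071, for Ndufa5, and every member had an adjusted p of 1 in limma. The median standard error of a member was 0.32, larger than the median difference. With the pool number as a block, 6 of 96 members (6.25%) had an unadjusted p under 0.05, all 6 higher in SHA. On the whole array 2.27% of probe sets were so in that direction and 2.99% in the other. In that fit, too, no member passed, and the lowest adjusted p of a member in limma was 0.83.

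**Figure D1:**
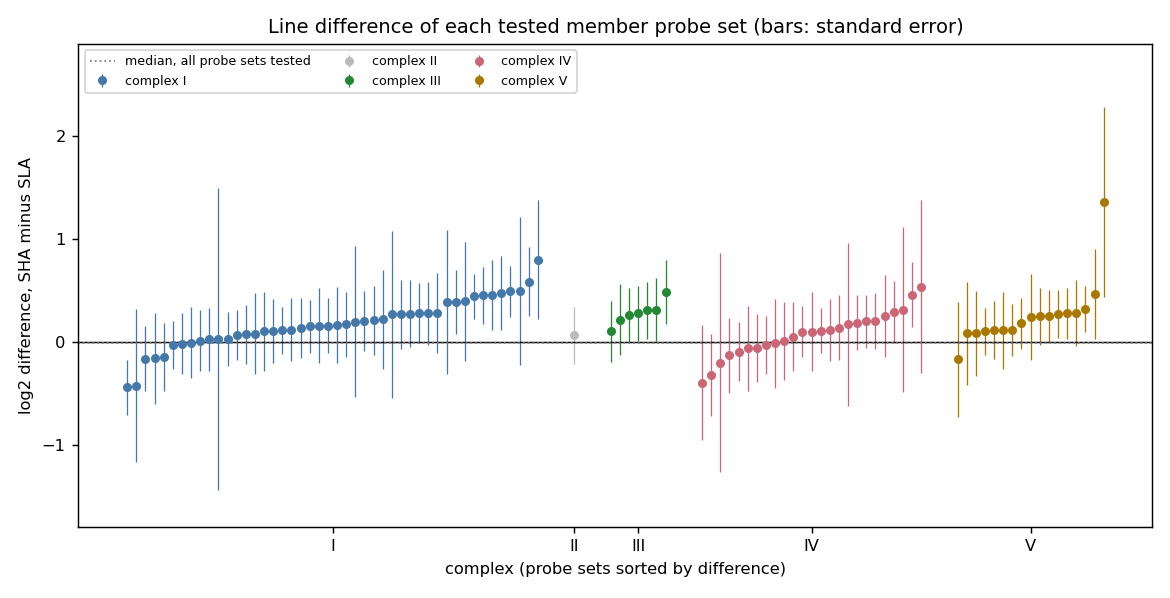
Each point is 1 of the 96 tested member probe sets, sorted by difference within its complex, with the log2 difference SHA minus SLA on the vertical axis and bars of 1 standard error; the dotted line is the median of all probe sets tested. Points lie mostly above 0, with 38 of 46 higher in complex I, 7 of 7 in complex III, 16 of 25 in complex IV and 16 of 17 in complex V, and most bars reach 0.

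The count of higher members rested on particular pools. Leaving out SHA pool 1 gave 53 of 96 (55.2%), and leaving out SLA pool 2 gave 55 of 96 (57.3%). All probe sets tested were higher in 50.4% and 46.4% of cases in the same settings. Without SHA pool 1 the member median was 0.04. Leaving out any other pool kept the count between 66 and 79. Without both pools numbered 1, an added check, 72 of 97 were higher and the median was 0.11. In that setting the median was 0.13 in complex III, with 7 of 7 higher, and 0.079 in complex V, with 11 of 17 higher.

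The pool numbers, which both lines share, divided the result further. Within number 1 the median member difference was 0.19, within number 2 it was 0.19, and within number 3 it was 0.03. Over all probe sets tested these medians were -0.09, -0.05 and 0.07. Members higher in SHA numbered 64, 76 and 52 of 96 in the same order. In the pools numbered 3 the members were thus split nearly evenly, and their median lay below that of the array. Within all 3 numbers, 26 members were higher (27.1%, against 12.7% of all probe sets tested) and 2 were lower (2.08%, against 15.2%). The 2 were a probe set of Ndufb8 and the probe set M27467_at of Cox6c.

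**Figure D2:**
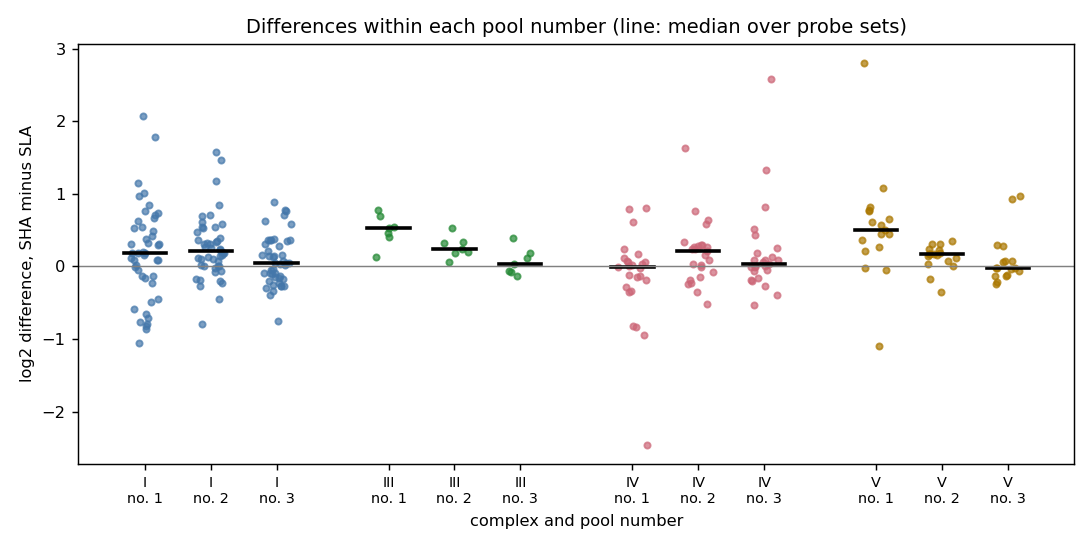
Points are tested member probe sets of complexes I, III, IV and V, with the log2 difference SHA minus SLA between the pools of the same number on the vertical axis, and black lines are medians. The medians of complex V were 0.50, 0.17 and -0.02 for numbers 1, 2 and 3, those of complex III 0.53, 0.24 and 0.03, and those of complex IV -0.01, 0.21 and 0.04.

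Complex I, the NADH dehydrogenase, had 38 of 46 tested probe sets higher in SHA and a median difference of 0.16. Ndufaf3 and Ndufa4l2, which encode no subunit, and Ndufa4, a subunit of complex IV, are counted in. Without SHA pool 1 the count of higher probe sets was 26 of 47, and without SLA pool 2 it was 26 of 46. Complex I, with 46 of the 96 tested members, held the only 4 whose SHA and SLA pools did not overlap, 3 higher and 1 lower. They were 3.12% and 1.04% of the tested members. Of all probe sets tested, 2.01% were wholly higher and 3.65% wholly lower. Ndufa5, an accessory subunit of the arm that reaches into the matrix, read 938.7, 924.7 and 774.6 in SHA pools 1 to 3 and 592.3, 635.9 and 708.9 in SLA pools 1 to 3. Every SHA pool lay above every SLA pool, with the narrowest gap between the pools numbered 3. The difference was 0.44 ± 0.22 (unadjusted p = 0.071 in limma, and 0.026 with the pool number as a block).

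Ndufa6, an accessory subunit that binds the acyl carrier protein of the complex, read 922.6, 835.7 and 788.5 in SHA and 630.8, 465.3 and 746.6 in SLA on rc_AA819547_at. The groups did not overlap, and the difference was 0.49 ± 0.25. It was 0.55, 0.84 and 0.08 within the numbers 1, 2 and 3. Its other probe set, rc_AI229924_at, read 1050.3, 192.2 and 729.2 in SHA and 807.1, 118.2 and 882.1 in SLA. There both pools numbered 2 stood far below the rest, and the difference was 0.27 ± 0.81.

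Ndufs8, an iron-sulphur subunit on the path from NADH to ubiquinone, read 542.3, 323.5 and 343.2 in SHA and 301.4, 293.5 and 266 in SLA on AA685112_at. The groups did not overlap, although SHA pool 1 stood well above the other pools, and the difference of 0.45 ± 0.28 was 0.22 without that pool. The other 2 tested probe sets of Ndufs8 overlapped and differed by 0.28 and 0.10. Ndufb8, a subunit of the membrane arm, was the exception on the lower side: rc_AA851403_at read 247.2, 250.4 and 276.9 in SHA and 437.8, 293.2 and 334.3 in SLA (-0.44 ± 0.27). Its other 3 probe sets overlapped and differed by 0.27, 0.03 and -0.02, so the 4 probe sets of this gene did not go one way.

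**Figure D3:**
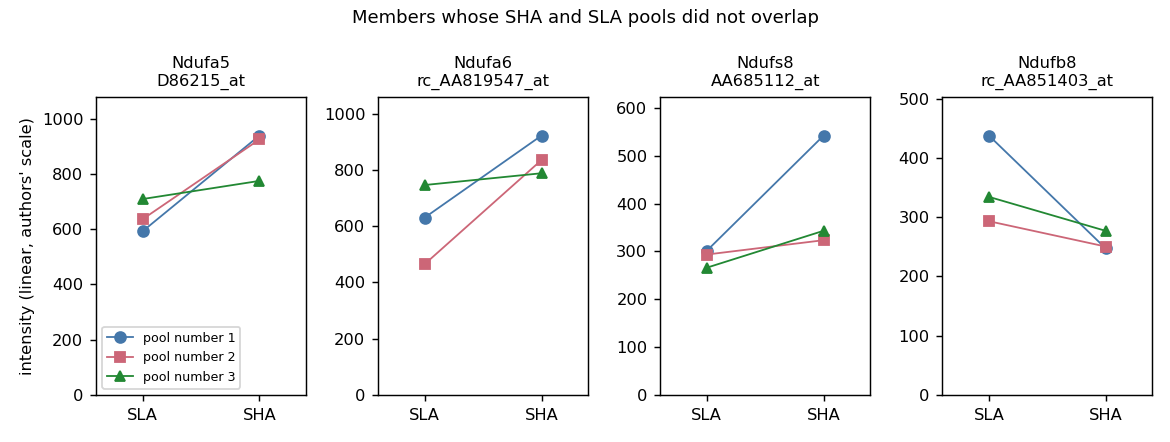
The 4 member probe sets whose SHA and SLA pools did not overlap are shown as linear intensity for the SLA and SHA pools, with lines joining pools of the same number and vertical axes from 0. Ndufa5, Ndufa6 and Ndufs8 were higher and Ndufb8 lower in SHA, and for Ndufa5 and Ndufa6 the line of number 3 is the flattest.

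Among the other subunits of complex I, the core ones that carry electrons (Ndufs1, Ndufs7, Ndufs8 and Ndufv2) had 5 of 6 probe sets higher, from -0.16 to 0.45. Ndufv2, an iron-sulphur subunit near the site of NADH oxidation, read 2342, 1353.5 and 1998.4 in SHA and 2051, 1128.5 and 1221.9 in SLA. It differed by 0.39 ± 0.31 with overlapping groups, and limma with the block gave an unadjusted p of 0.033. Ndufs7 differed by 0.03 ± 0.26 and Ndufs1 by -0.16 ± 0.44. Ndufa4l2, which encodes no subunit, is described below. All 10 probe sets of the other genes named Ndufa, with the acyl carrier protein Ndufab1, were higher. They ran from 0.02 for Ndufa9 to 0.49 for Ndufa6. One of them, Ndufa4, bears a complex I name but is a subunit of complex IV, and it differed by 0.15 ± 0.26.

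The genes named Ndufb and Ndufc, which build the membrane arm, had 13 of 17 probe sets higher with a median of 0.12. Ndufb9, a small subunit of that arm, had the largest difference of these, reading 3156.3, 2244.7 and 1650.7 in SHA and 1859.2, 993.6 and 1867.2 in SLA. Its difference was 0.59 ± 0.33, with overlapping groups, since SHA pool 3 lay below SLA pools 1 and 3. Ndufb10 differed by 0.01 ± 0.29, and both probe sets of Ndufb6 lay slightly lower (-0.14 and -0.01). The accessory Ndufs4, Ndufs6 and Ndufv3 had 4 of 6 probe sets higher. Ndufv3 gave the largest difference of a complex I probe set on AB000098_at, 0.80 ± 0.58, where SLA pool 1 read 24.2 and the other pools 39.4 to 86.1. Its other probe set differed by -0.03 ± 0.24.

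The brightest probe set of complex I, rc_AA964320_at of Ndufb8, read 4045.7, 2935.9 and 2320.4 in SHA and 4082.6, 2723.4 and 2580 in SLA. Its difference was -0.02 ± 0.30, and 97% of its sum of squares lay between the pool numbers. Of the genes that carry a complex I name without being subunits, Ndufaf3, which helps assemble the complex, had 3 probe sets at 0.08 to 0.22. Ndufa4l2, a paralog of Ndufa4 known to respond to low oxygen, had 4 tested probe sets from -0.16 to 0.50, all of kinds that may read similar sequences. Probe sets of Ndufa4l2, Ndufb11 and Ndufs8, 1 of each, were too dim to test. The tested probe set of Ndufb11, a subunit of the membrane arm encoded on the X chromosome, read 520.6, 534.6 and 576.4 in SHA and 234.6, 429.2 and 613.9 in SLA (0.46 ± 0.34). SLA pool 1 was low there and SLA pool 3 was above all SHA pools.

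Complex II was measured by a single tested probe set, for Sdha, its flavoprotein subunit. It read 567.9, 832.4 and 558.4 in SHA and 458.4, 673.6 and 748.2 in SLA, and the groups overlapped. The difference of 0.06 ± 0.28 turned to -0.15 without SLA pool 1 and to -0.12 without SHA pool 2. Nothing can be said of the other subunits of this complex.

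Complex III, the cytochrome bc1 complex, had all 7 probe sets of its 4 genes higher in SHA, with a median of 0.28, and none past the test. Uqcrfs1, the Rieske iron-sulphur protein, differed most: rc_AI103911_at read 349.9, 250.6 and 220.2 in SHA and 242.8, 173.2 and 168.3 in SLA. SHA pool 3 lay below SLA pool 1 and above the other SLA pools. Its difference was 0.48 ± 0.31, and the unadjusted p in limma was 0.155 without the block and 0.050 with it. The differences within the numbers were 0.53, 0.53 and 0.39. The other 2 probe sets of Uqcrfs1 differed by 0.32 and 0.28.

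Cyc1, the cytochrome c1 that hands electrons to cytochrome c, read 2510, 1631.1 and 1358.7 in SHA and 1713, 1291.9 and 1331.5 in SLA (0.31 ± 0.28). Here SHA pool 1 stood apart at the top, and the difference was 0.05 without it. Uqcrc2, a core protein of the complex, read 784.3, 1006.2 and 675.9 in SHA and 567.8, 882.3 and 622.7 in SLA (0.26 ± 0.26). In each number the SHA pool was the higher of the pair, while the spread between numbers was larger than that between lines. Uqcr11, a small subunit, differed by 0.22 and 0.10 on its 2 probe sets. Without SHA pool 1, 5 of the 7 probe sets of complex III were higher.

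Complex IV, cytochrome c oxidase, had 16 of 25 tested probe sets higher and a median of 0.10, the lowest share of the complexes with several probe sets. That count takes in Cox7a2l and Cox6c-ps1, which encode no subunit and whose probe sets were all higher. The median of complex IV fell to -0.02 when SHA pool 1 was left out and to -0.14 when SLA pool 2 was, so its direction depended on single pools. Cox6c, a small membrane subunit, had its smallest p on M27466_at, with 333.7, 190.8 and 324.2 in SHA and 192.2, 226.1 and 183.3 in SLA (0.46 ± 0.32). SHA pool 2 lay within the SLA range and the other SHA pools above it. Another probe set of Cox6c, M27467_at, read 1167, 82.5 and 346.9 in SHA and 1494, 93.7 and 362.4 in SLA (-0.20 ± 1.07). The pool number set the level of this probe set almost wholly, with 99.5% of its sum of squares. Subunits next to the catalytic core gave small differences: 0.10 and 0.12 on the 2 probe sets of Cox5b, and 0.31 ± 0.80 for Cox5a. Cox7b, a small subunit, read 1370.5, 1295 and 898.6 in SHA and 782, 1301.1 and 1024.9 in SLA (0.20 ± 0.27), with SLA pool 1 the lowest. Cox6b1, which faces the intermembrane space, had both probe sets on the lower side (-0.03 and -0.13). Cox7a2l, which links complex III and IV in supercomplexes, differed by 0.11 and 0.20 on its 2 probe sets. The pseudogene Cox6c-ps1 was dim and uneven, at 56.6, 37.5 and 58.4 in SHA and 100.4, 41.5 and 9.7 in SLA (0.54 ± 0.84).

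Several subunits of complex IV exist as isoforms of different tissues. The liver type Cox6a1 had all 3 probe sets higher (0.10, 0.26 and 0.29), none past the test. The heart and muscle type Cox6a2 had probe sets at 0.17 ± 0.80 and 0.01 ± 0.38 and another too dim to test, at 2.8 to 9.9 around the floor of 8.9 set for low values. Cox4i1, the common isoform of subunit 4, had probe sets at 0.19, -0.06 and -0.10, and Cox4i2, its isoform known from lung, was at -0.32 ± 0.40 with the smallest p of the lower members of the complex. Cox4i2 read 319.4, 274.7 and 678.7 in SHA and 568.6, 320.4 and 638.2 in SLA, so its highest pools were those numbered 3 and SLA pool 1. For subunit 8, the 4 probe sets of Cox8a differed by 0.14, 0.05, -0.01 and -0.06. The muscle type Cox8b differed by -0.40 ± 0.56 on U40836mRNA_s_at and was too dim to test on its other probe set. Each of these isoform differences was smaller than its standard error in the fit without the block. With the pool number as a block some were larger than theirs and others were not. Among the larger were Cox4i2 (standard error 0.21) and Cox6a1 on X72757_g_at (standard error 0.15).

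The heart and muscle marker genes listed for comparison were low and variable, with 6 of 10 probe sets bright enough to test. Their summed intensity was 482.4 to 598.3 in SHA and 438.4 to 848.1 in SLA. The 6 split evenly by direction around a median of -0.14. Troponin I (Tnni3) and myosin (Myh6) had probe sets at or near the floor.

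Complex V, the ATP synthase, had 16 of 17 probe sets higher in SHA with a median of 0.24, and none past the test. All 13 member probe sets of its subunits were on the higher side, by 0.08 to 0.47. The c subunit genes were read only by probe sets that also name a second gene and are not in this count. These differed by 0.09 ± 0.28 for Atp5mc1 and by -0.18 ± 0.23 for Atp5mc2. In the catalytic F1 head, the alpha subunit Atp5f1a read 1378, 1324.8 and 1037.6 in SHA and 873.2, 1170.6 and 1052.9 in SLA (0.27 ± 0.23). The catalytic beta subunit Atp5f1b read 4909.5, 3596.8 and 3351.3 in SHA and 3469.6, 3150.2 and 3203.3 in SLA (0.25 ± 0.25, and 0.086 without SHA pool 1). In Atp5f1a only the SHA pools numbered 1 and 2 lay above all SLA pools, and in Atp5f1b SHA pool 3 fell below SLA pool 1.

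The central stalk, which turns within the head, had 5 probe sets at 0.08 to 0.32. Its delta subunit Atp5f1d read 1334.9, 1301.7 and 1059.9 in SHA and 979.8, 1112.9 and 868.3 in SLA on U00926_g_at, with only SHA pool 3 inside the SLA range. That difference, 0.32 ± 0.22, had an unadjusted p of 0.185 in limma and of 0.046 once the block was added. The other probe set of Atp5f1d, U00926_at, differed by 0.11 ± 0.28, and limma with the block gave an unadjusted p of 0.47. The gamma subunit Atp5f1c differed by 0.28 ± 0.24. The peripheral stalk, which holds the head still, had 6 probe sets at 0.08 to 0.47, from Atp5pb, Atp5pd, Atp5pf and Atp5po. Atp5pf read 425.6, 708.9 and 656.9 in SHA and 201.8, 598 and 623.9 in SLA on X54510_g_at, so its difference of 0.47 ± 0.43 rested mainly on SLA pool 1. The other probe set of Atp5pf, X54510_at, differed by 0.10 ± 0.23. Without SHA pool 1, 10 of the 16 probe sets of complex V then tested were higher, and the median was 0.04.

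Atp5if1, the protein that blocks ATP hydrolysis by the synthase, accounted for both ends of complex V. On D13122_i_at it read 85.2, 76.9 and 18.7 in SHA and 12.2, 62.3 and 9.5 in SLA (1.36 ± 0.93). The low readings were SHA pool 3 and SLA pools 1 and 3, and SLA pool 3 was close to the floor. On M35300_f_at the same gene differed by -0.17 ± 0.56, and on its other 2 probe sets by 0.18 and 0.25. Probe sets ending in _f_at, _i_at or _s_at are designed to read, or may read, several similar sequences, so their gene is less certain. Without them, 60 of 70 members were higher, with a median of 0.20. Leaving out the genes that encode no subunit left 66 of 82 higher, with a median of 0.15. Both of these selections were added with the values known.

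**Figure D4:**
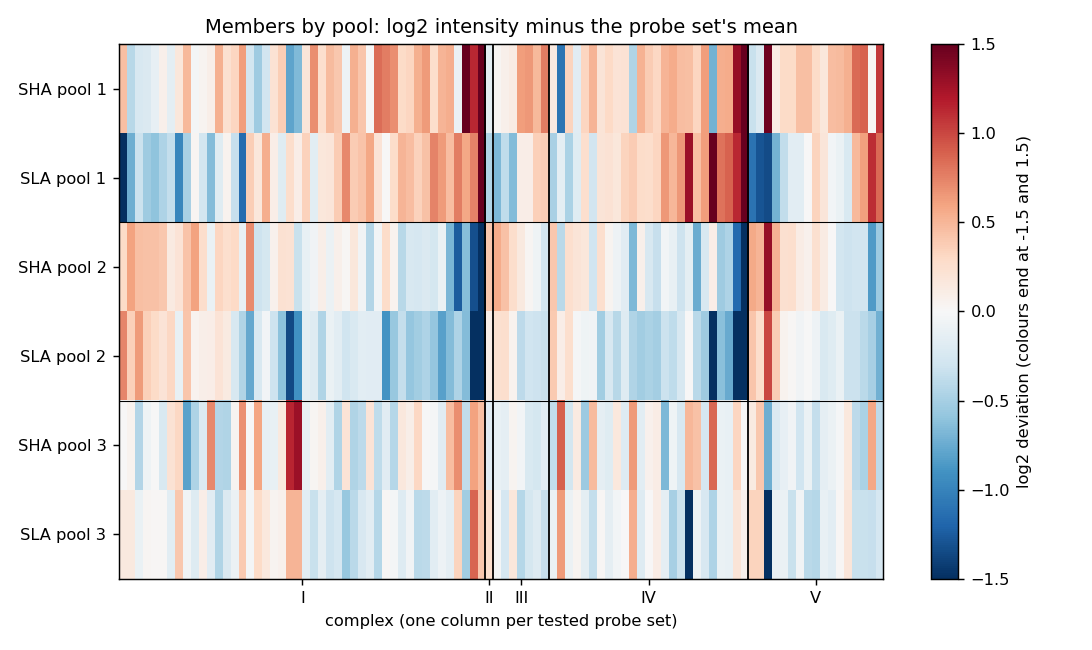
Each column is 1 tested member probe set, grouped by complex and sorted by the difference between pools 1 and 2, and each row is a pool; colour gives log2 intensity minus the probe set's mean. Pools of the same number in SHA and SLA resemble each other, and the median deviation over members was 0.32 in SHA pool 1, 0.19 in SLA pool 1, 0.01 in SHA pool 2, -0.23 in SLA pool 2, -0.08 in SHA pool 3 and -0.10 in SLA pool 3.

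The pool number took more of the variation among members than the line did. For the median member, the number accounted for 72.6% of the sum of squares over the 6 pools and the line for 6.4%. Over all probe sets tested these were 62.4% and 7.61%. With no effect of either, their 2 and 1 degrees of freedom of 5 would take 40% and 20% on average, so the number would exceed the line in most probe sets. The number's share exceeded the line's in 85 of 96 members (88.5%), and in 85.3% of all probe sets tested. By complex the median share of the number was 69.5% in complex I, 68.0% in complex III, 82.9% in complex IV and 61.0% in complex V. The median share of the line was 20.2% in complex III, 11.9% in complex V, 6.02% in complex I and 5.3% in complex IV.

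Of the 96 members, 59 (61.5%) were highest in the pools numbered 1, 25 (26.0%) in those numbered 2 and 12 (12.5%) in those numbered 3. Over all probe sets tested these shares were 34.4%, 34.4% and 31.2%. Complex IV had 20 of 25 members highest in number 1, among them all probe sets of Cox6a1 and Cox8a. Members of opposite profile included Atp5pb, at 562.8, 1054.8 and 778 in SHA and 329.3, 945.3 and 899.7 in SLA, which was lowest in the pools numbered 1 in both lines. Ndufb8 on rc_AA999168_at showed the widest range, from 25.2 in SLA pool 2 and 35 in SHA pool 2 to 1053.6 in SHA pool 1 and 1431.2 in SLA pool 1. The difference between the lines there was 0.03 ± 1.47. Cox5a had a like profile, at 315.3, 57 and 159.9 in SHA and 278.8, 36.7 and 146.3 in SLA.

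The difference between pools 1 and 2 was computed in each line separately. Across the 96 members the values in SHA and SLA correlated at Pearson r = 0.71, and across all probe sets tested at r = 0.62. The points share the 4 arrays, so this is a description. The sign was the same in both lines in 76 of 96 members (79.2%), and in 73.8% of all probe sets tested. The difference exceeded 1 in size, as the mean of both lines, in 20 members (20.8%), 15 of them higher in number 1, and in 27.1% of all probe sets tested. What a number shares is not given in the labels. The level of the added controls and the 3′ to 5′ ratio of Gapdh moved with the number as well, and their part in these values was not tested.

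**Figure D5:**
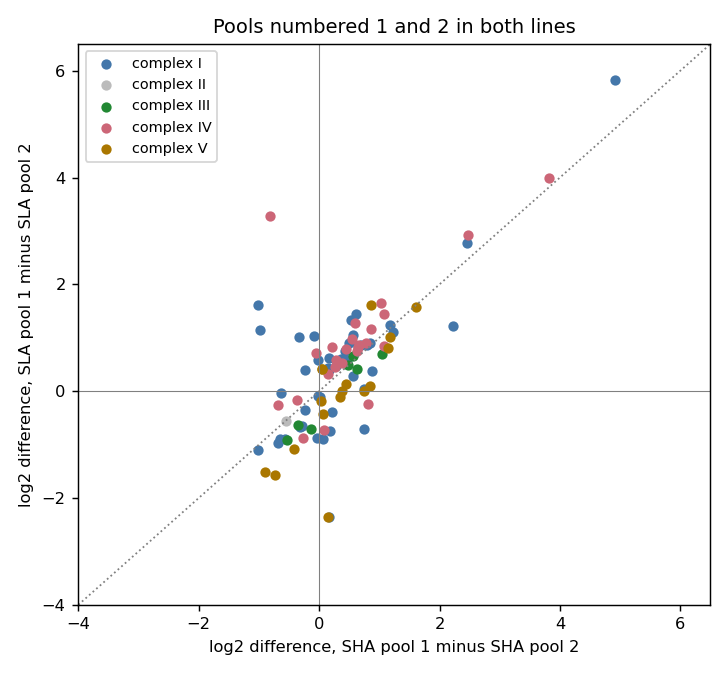
Each point is 1 tested member probe set, with the log2 difference of SHA pool 1 minus SHA pool 2 on the horizontal axis and that of SLA pool 1 minus SLA pool 2 on the vertical axis; the dotted line marks equality. Most points lie along it, from Atp5pb at -0.91 and -1.52 to Ndufb8 on rc_AA999168_at at 4.91 and 5.83.

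Other genes of the pathway were counted beside the members. Genes that export or buffer ATP, such as the adenine nucleotide carriers and creatine kinases, had 7 of 15 tested probe sets higher and 8 lower, with a median of -0.08. The carrier Slc25a5 read 1989.4, 2449.7 and 1982.6 in SHA and 826.2, 2297.7 and 1745 in SLA (0.51 ± 0.36). Its low pool was SLA pool 1. The carrier Slc25a4 differed by 0.08 ± 0.25 and the phosphate carrier Slc25a3 by 0.00 ± 0.23. Ucp2, an uncoupling protein of the inner membrane, read 769.1, 957.9 and 1011.2 in SHA and 1200.6, 1268.7 and 1938 in SLA on AB010743_at. Every SHA pool lay below every SLA pool, with a difference of -0.66 ± 0.26 (unadjusted p = 0.030 and adjusted p = 1 in limma). A second probe set of Ucp2 differed by -0.15 ± 0.23.

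Genes that feed electrons in by other routes, such as the electron transfer flavoprotein Etfa and its dehydrogenase Etfdh, had 2 of 9 tested probe sets higher and 7 lower, with a median of -0.19. Etfdh differed by -0.78 ± 0.44 on rc_AI176422_g_at and by -0.23 ± 0.37 on rc_AI176422_at. Gpd2 of the same list was at 1.44 ± 0.95 on X78593_at, where SLA pool 1 read 4.6, under the floor. Its other tested probe sets lay lower in SHA (-0.21 and -0.30). Among assembly and quality control genes, apart from the member Ndufaf3, 2 probe sets were bright enough to test and 0 were higher: Phb2, a prohibitin, at -0.21 ± 0.23 and Sdhaf2, an assembly factor of complex II, at -0.31 ± 0.31. Regulators of transcription and mitochondrial DNA had 2 probe sets bright enough to test, 1 on each side. None of these probe sets passed limma's test, and Ucp2 was the only one with an unadjusted p under 0.05. Whether these lists differ from the members was not tested.

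Markers of cell types were counted in the same pools. Neuronal markers had 19 of 20 tested probe sets higher in SHA, with a median of 0.30 (0.62, 0.10 and 0.21 within the numbers 1, 2 and 3). Their summed intensity was 21046.2 to 26765.7 in SHA and 15744.9 to 24948.3 in SLA. Astrocyte markers had 12 of 17 higher (median 0.09), oligodendrocyte markers 2 of 11 (median -0.19) and microglial markers 1 of 9 (median -0.39), with summed microglial intensities of 807.8 to 1082.9 in SHA and 1361.4 to 1700.8 in SLA. Choroid plexus markers had 4 of 8 higher, endothelial markers 1 of 4 and blood markers 0 of 2. The neuronal markers Snap25, Uchl1 and Map2 were above the floor in every pool, and Ptprc, a marker of immune cells, had 2 of 3 probe sets at or near it. No marker passed the test, and in limma 3 microglial probe sets, all lower in SHA, and no neuronal one had an unadjusted p under 0.05. Of all probe sets tested, 1.13% were lower in SHA at that level. The microglial ones were X13044_at and X13044_g_at, both of Cd74, and X71127_at of C1qb. The other probe set of C1qb differed by -0.32 ± 0.45. The microglial probe set X13044_at of Cd74, an antigen presentation gene, read 7.8, 10.4 and 7.2 in SHA, at or near the floor, and 246.2, 127.8 and 86.8 in SLA. Its adjusted p in limma was 0.81, and 0.019 with block and array weights together, the only alternative in which it passed. That fit gave most weight to the pools numbered 2. The part of such markers in the differences of the members was not tested.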

How the data were processed

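Total RNA of 6 hippocampal pools was measured on one-colour oligonucleotide arrays. Per probe set and array, the authors deposited a linear intensity. The trimmed means show that arrays had been scaled to each other; the software and the target are, for these files, not given in the sources used here. Members, lists and tests were chosen with earlier results of these data known. Values under a floor of 8.9, the 10th percentile, were raised to it before taking log2. The 59 control probe sets and the dimmest 25% of the rest were left out, leaving 6555 and removing 5 members. Gene names come from the platform annotation: 7006 probe sets had 1 symbol, 308 several and 1426 none listed. The two-sided test was limma (version 3.58.1, R 4.3.3; lmFit, then eBayes with trend), tried on simulated data first, and p-values were adjusted by Benjamini-Hochberg over all 6555. Lists are described by counts and medians, with no set test. The naming rule took, per complex, the smallest p in each direction, the brightest probe set, non-overlapping pools, any unadjusted p under 0.05, tissue isoforms, genes with several probe sets and genes that are no subunit; other members were named for their role or profile with values known.

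SHA and SLA pools share the numbers 1 to 3. After removing line means, same-numbered pools correlated at 0.442, 0.675 and 0.127 across the 6555 probe sets. Mismatched pairs ran from -0.56 to 0.156, the highest being SHA pool 3 with SLA pool 1, above its own number. Each same-numbered value is over 0.1, so differences within the numbers and a fit with the number as a block are given as well. That use of the numbers rests on the data and not on the labels. The main fit, which gave the differences, standard errors and p-values unless the block is named, held no block. Results were recomputed after quantile normalization or centring on the median, with other floors or filters, without the trend, with array weights, with the pool number blocked, and with each pool left out. The number of arrays, 6, limits the precision.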

Additional observations from a re-analysis of the deposited data

How the results depend on the processing

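The count of 0 members past the threshold held in limma under all 16 alternatives run. Added with the values known were leaving out both pools numbered 1, joining block and array weights, and 3 other choices of members. Block and weights together gave 12 called probe sets on the array, none a member and 1 of them the microglial marker Cd74. In that fit both pools numbered 2 had a weight of 3.11, those numbered 1 had 0.48 and those numbered 3 had 0.669. Its counts thus rest mainly on the pools numbered 2. Members at an unadjusted p under 0.05 numbered 0 at first, 1 after quantile normalization, 1 with no filter, 4 with array weights, 6 with the replicate block, 1 without both pools numbered 1 and 21 with block plus weights. Leaving out single pools gave 0 to 1. All of these were higher in SHA, and the shares of all probe sets higher at that level were 2.36% with array weights (4.17% of members), 2.27% with the block (6.25%) and 5.69% with both (21.9%). The replicate block changed no other call. When 1 pool was left out, the median difference ran from 0.043 to 0.29 over members, from 0.064 to 0.28 in complex I, from -0.14 to 0.31 in complex IV and from 0.0312 to 0.27 over genes. Of 413 values of 26 named probe sets under the alternatives, 364 kept their direction and their side of the threshold and 49, none of them called, changed direction; the cause was not tested. With array weights M35300_f_at of Atp5if1 was at 0.27, X54081mRNA_i_at of Cox4i1 at 0.22, Sdha at -0.18, Ndufb8 on rc_AA964320_at at 0.15, and Cox8a at 0.096 on L48209_s_at and 0.14 on rc_AI102505_at. Without both pools numbered 1 the same probe sets of Atp5if1, Cox4i1 and Sdha were at 0.29, 0.0050 and -0.058, and those of Cox8a at 0.043 and 0.15. With block and weights Cox8a was at 0.033 and 0.17 on these, Ndufb8 at 0.054 and Cox6a2 on X12554cds_s_at at -0.19. Quantile normalization put Cox8a on M28255_s_at at -0.041, and median centring put rc_AI102505_at at 0.041 and Ndufb8 at 0.035. When 1 pool was left out, ranges were -0.51 to 0.34 (Atp5if1, M35300_f_at), -0.31 to 0.25 (Cox4i1, X54081mRNA_i_at), -0.23 to 0.047 (Cox4i1, rc_AA818226_s_at), -0.19 to 0.44 (Cox6a1, rc_AI104520_s_at), -0.56 to 1.09 (Cox6a2, rc_AI171644_s_at), -0.21 to 0.39 (Cox6a2, X12554cds_s_at), -0.39 to 0.33, -0.19 to 0.24, -0.40 to 0.43 and -0.066 to 0.31 (Cox8a, L48209_s_at, M28255_s_at, rc_AI102505_at and rc_AI102505_g_at), -0.95 to 0.047 (Cox8b), -0.23 to 0.19 (Ndufb8, rc_AA964320_at), -0.15 to 0.21 (Sdha) and -0.11 to 0.45 (Uqcr11, rc_AA892462_at).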
